A study of Homo sapiens with 6 samples.

Results

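The TNF superfamily was described in 6 RNA-seq libraries of Ls174t, a human colorectal cancer cell line that secretes mucin. Its 44 genes, 18 ligands and 26 receptors, were chosen by name out of the 17563 gene rows with values, and 43 of them had values. The row of the ligand TNFSF18 was empty. A line carrying the vector and a stable line overexpressing RNF186, an E3 ubiquitin ligase of the intestinal epithelium, were each split into 3 dishes of 6 cm and harvested untreated after 48 h. Each group is thus 1 line, the p-values measure the spread between dishes of that line, and an effect of RNF186 cannot be told apart from other differences between the lines. The series is titled for TNFα signalling in colorectal epithelial cells, and the comparison asks how the ligands and receptors of that family stood with and without extra RNF186.

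TNF superfamily ligands are mostly trimeric membrane proteins, several of which are cut from the surface by proteases, and they cluster their receptors on the target cell. Receptors with a death domain recruit TRADD or FADD and can start caspase activation or NF-κB signalling. The others bind TRAF adaptors and lead to NF-κB and MAP kinases. Decoy receptors bind a ligand without passing on a complete signal. In the gut, epithelial cells respond to TNF and TRAIL (the product of TNFSF10), while many ligands and costimulatory receptors of the family are known chiefly from lymphocytes.

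Levels are in FPKM, fragment counts scaled to gene length and to the size of the library, so different genes can be set side by side. Summed over genes they came to between 387477.6 and 412391.1 in a library, with 11510 to 11686 genes at 1 FPKM or more. RNF186 was at 0.67 ± 0.0529 FPKM in vector cells and at 505 ± 65.2 in RNF186 cells (mean ± SD, n = 3 dishes), as labelled. RNF186 replicate 2 stood apart on the principal component after the one that separated the groups, at 12.09 against -5.59 to 4.64 for the other libraries. Its difference from the other RNF186 dishes had a Spearman correlation of 0.74 with the GC content of transcripts across 11599 genes, which share these libraries and are not replicates. The same correlation was -0.57 and -0.52 for RNF186 replicates 1 and 3, 0.49, -0.14 and -0.45 for vector replicates 1 to 3, and -0.30 for the change from vector to RNF186. Each dish was set against the mean of the other dishes of its group, so the values within a group depend on each other. Those of RNF186 replicates 1 and 3 have replicate 2 in their reference. With libraries corrected for GC content and length, the 18 members called among the 25 tested kept their calls, but the sizes of change moved both ways. On the log2 scale TNFSF9 went from -0.42 to -0.33 and TNFRSF1A from -0.26 to -0.18. FAS went from -0.40 to -0.44 and LTB from 1.72 to 1.89. RNF186 replicate 2 was the highest of the RNF186 dishes for 16 of the 25 members tested and the lowest for 6. All 10 epithelial markers reached 1 FPKM, with a summed level of 5996 to 6506 in the vector and 4991 to 5415 in the RNF186 libraries. KRT8 and KRT18, keratins that make up most of that sum, fell with VIL1, while EPCAM, CDH1, CDX2 and CEACAM5 rose and 3 markers were not called. EPCAM, CDH1 and CDX2 each kept their call in only 3 of 6 fits that left out 1 library, and the other called markers kept theirs in all 6. Of 20 markers of other cell types with values, 15 stayed under 1 FPKM in every library. The T and NK cell markers summed to 0.11 to 0.23 FPKM in the vector and 0.04 to 0.27 in the RNF186 libraries. The exceptions were PTPRC and CORO1A, general leukocyte genes, and CD14, CD68 and LYZ of the myeloid list, whose sum was 41.5 to 45.7 FPKM in vector and 40.2 to 41.6 in RNF186 libraries. The part of any other cell type in the results was not tested, and in bulk RNA fewer cells of a type and less RNA per cell cannot be told apart.

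A gene was taken as expressed in a group when all 3 dishes reached 1 FPKM. By that measure 21 members were expressed in both groups, 5 ligands and 16 receptors. Another 4 were expressed in the RNF186 group but not in the vector group, the ligands TNF and LTB and the receptors TNFRSF6B and TNFRSF9. TNFRSF6B reached 1.15 FPKM in vector replicate 1 and TNFRSF9 reached 1.11 in vector replicate 3, so their place here depends on the cutoff. A further 8 were low, with a value above 0 in all 6 libraries, and 9 were at 0 in some libraries. The receptor TNFRSF4 was listed at 0 in all 6. The ligand side was dominated by TNFSF9 and CD70, membrane ligands known as costimulators of T cells, at 126 ± 8.46 and 122 ± 6.44 FPKM in vector cells, where their ranges overlapped. On the receptor side TNFRSF10B, a death receptor for TRAIL, was highest at 58.8 ± 1.18 FPKM, before LTBR at 49 ± 1.09 and TNFRSF12A at 47.1 ± 1.84. Summed over the ligands, the level was 252 to 280 FPKM in the vector and 197 to 220 in the RNF186 libraries. Summed over the receptors it was 316 to 321 and 301 to 325 FPKM, so the groups overlapped.

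**Figure D1:**
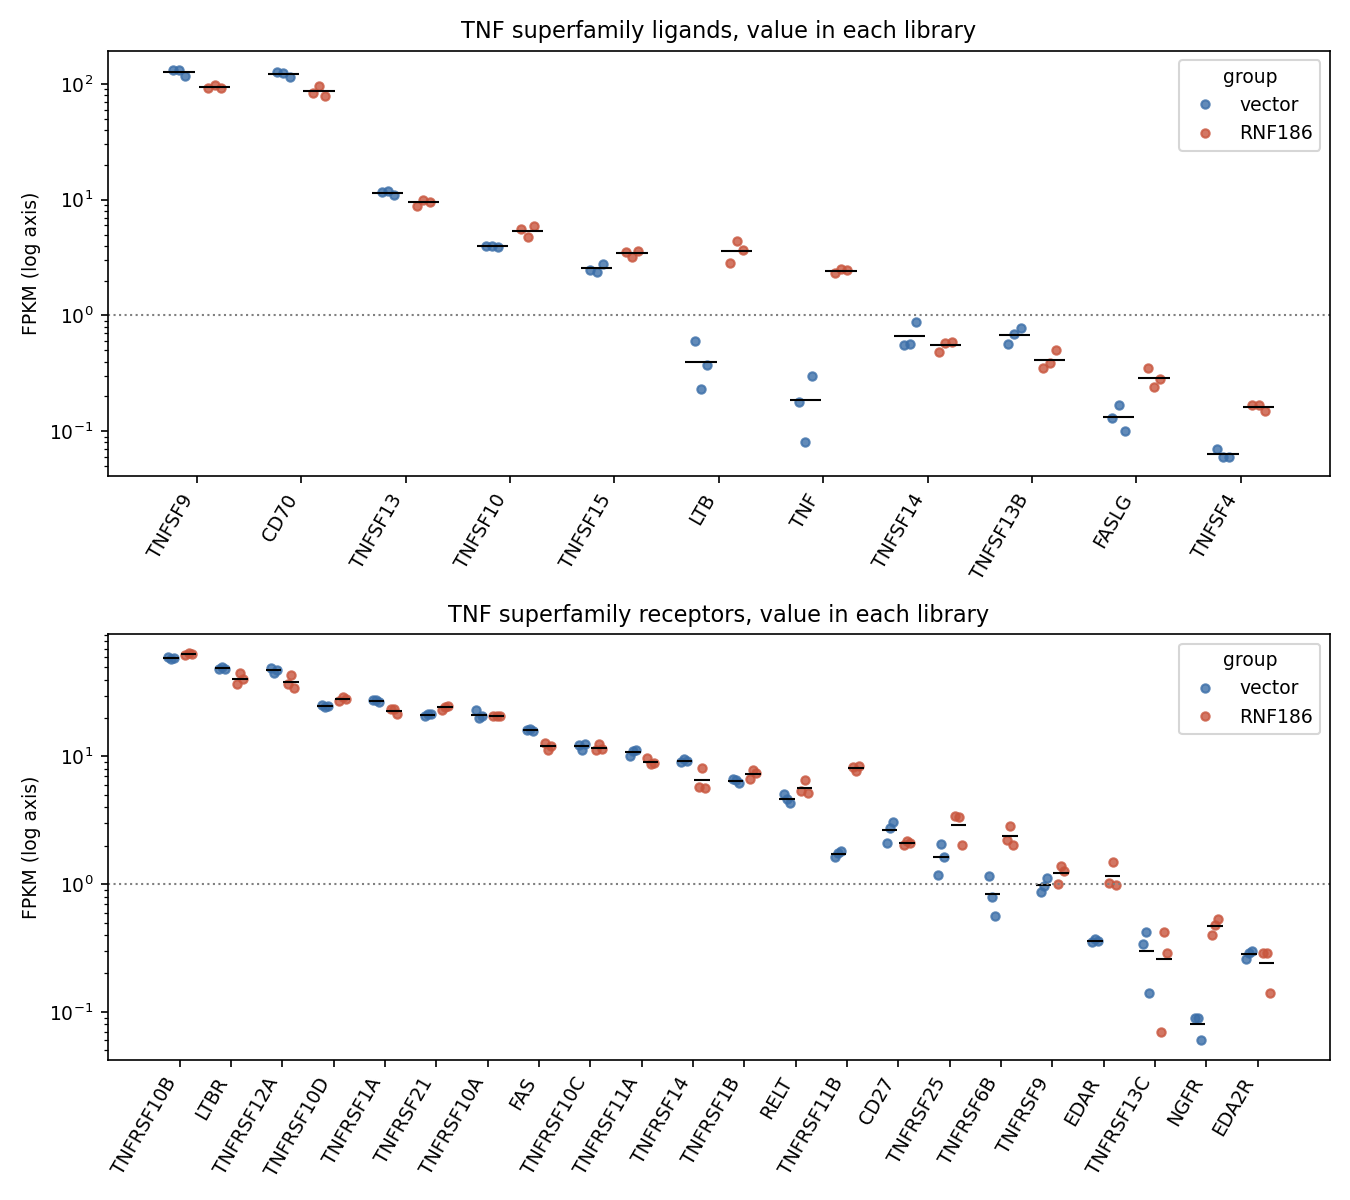
FPKM on a log axis of the 11 ligands (upper panel) and 22 receptors (lower panel) with a value above 0 in all 6 libraries; points are dishes, black lines are group means and the dotted line marks 1 FPKM. TNF, LTB, TNFRSF11B, EDAR and NGFR show the widest gaps between the groups, with the RNF186 dishes above the vector dishes.

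Differences were tested with limma on log2(FPKM + 1), adjusted over the 11632 genes whose mean over the 6 libraries reached 1 FPKM, and genes with an adjusted p under 0.05 are called. Of the 25 members tested, 9 were higher and 9 lower with RNF186, and 7 were not called. Of all genes tested, 38.8% were called, 19.9% higher and 18.9% lower. The filter favours genes that are high in either group, and TNF, LTB, TNFRSF6B and TNFRSF9 passed it with a vector mean under 1 FPKM, so the members' count is given as a description. Without any filter, 12 of 42 members with a value above 0 were called higher and 9 lower, where 25.6% of 17087 genes were called, 14.5% higher and 11.2% lower. Counting only whether the dishes of the groups overlapped, 10 of the 25 tested members lay wholly higher and 9 wholly lower with RNF186, against 25.7% and 23.8% of all genes tested (49.5% in either direction). Among the 42 members with a value above 0, 14 lay wholly higher and 10 wholly lower, against 21.4% and 17.9% of genes with no filter (39.3% in either direction). After TPM rescaling 12 members were called higher and 8 lower, and 63.1% of all calls were then higher, against 51.3% as deposited. Without RNF186 replicate 2 all 18 members kept their call and direction. Most of the members' changes were small, with 12 of the 18 called under 0.5 on the log2 scale and 3 of at least 1, those of TNFRSF11B, LTB and TNF. The median change of the 25 members was 0.10, with a median size of 0.27, and over all genes tested these were 0.00 and 0.14.

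**Figure D2:**
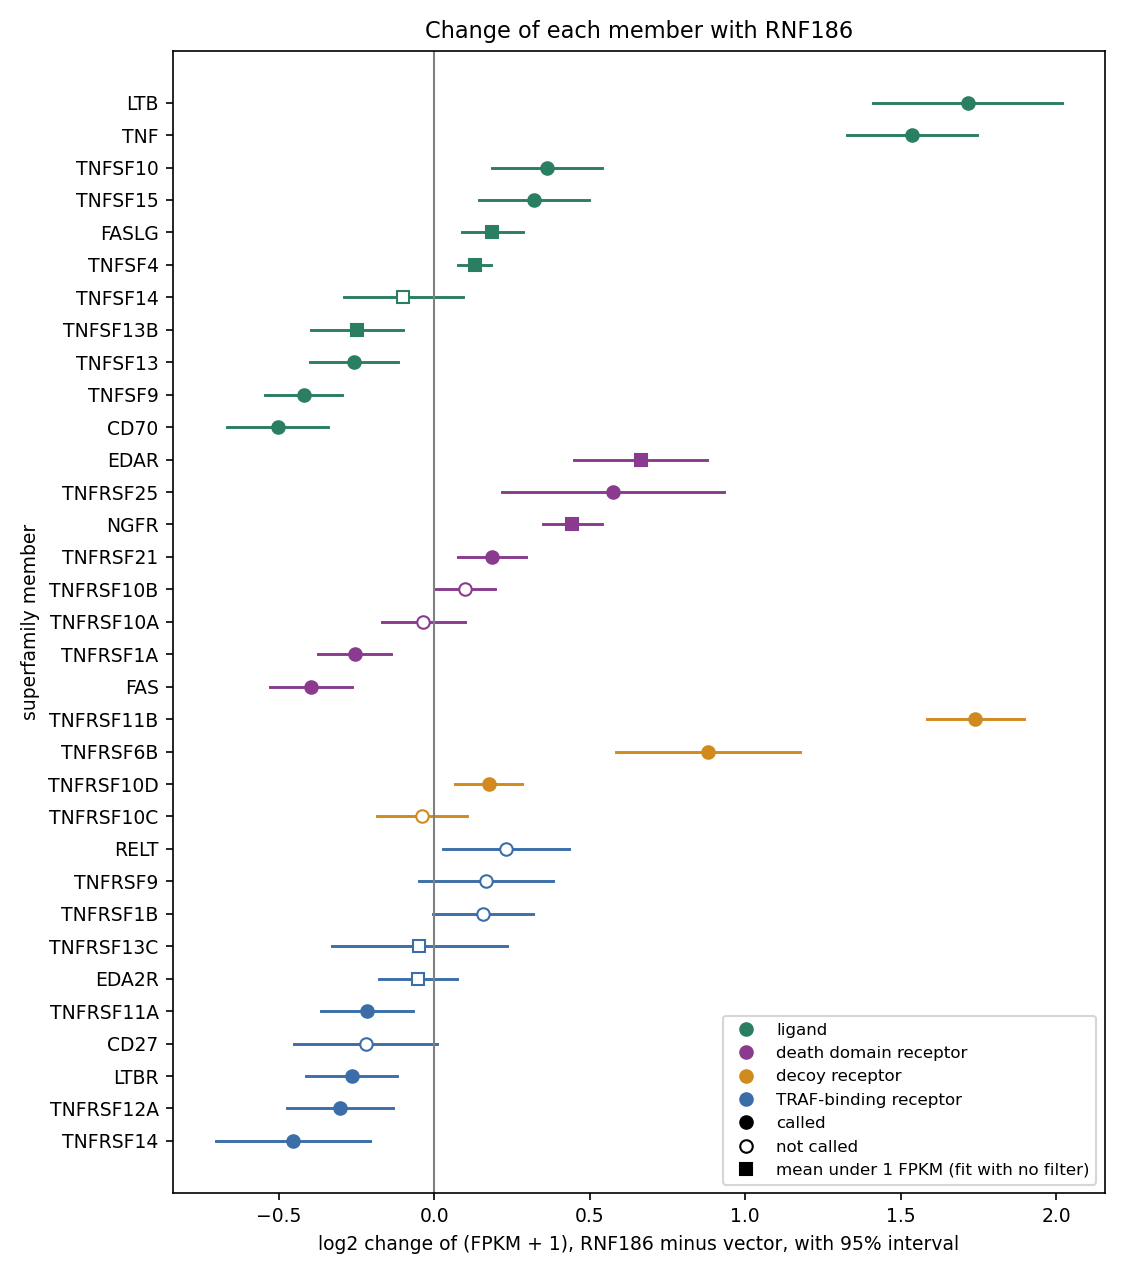
Change in log2(FPKM + 1), RNF186 minus vector, with its 95% interval for the 25 members tested (circles) and 8 low members from the fit with no filter (squares), coloured by class; filled symbols were called. TNFRSF11B, LTB and TNF lie at 1.74, 1.72 and 1.54, and every other member lies between -0.50 and 0.88.

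TNF and LTB, which are neighbours on chromosome 6, rose from low levels. TNF, the cytokine of the series title, was at 0.18, 0.08 and 0.30 FPKM in vector replicates 1 to 3 and at 2.32, 2.52 and 2.45 in RNF186 replicates 1 to 3. The groups were far apart, with a ratio of means of 13 and a log2 change of 1.54 (SE 0.0939, limma adjusted p = 1.69e-06). LTB, which encodes lymphotoxin β, the membrane anchor of lymphotoxin heterotrimers, was at 0.60, 0.23 and 0.37 FPKM in the vector and at 2.83, 4.38 and 3.64 in the RNF186 dishes. Its ratio of means was 9.04 and its log2 change 1.72 (SE 0.136, limma adjusted p = 9.94e-06). By size of change LTB ranked 42 and TNF 58 among all rises. That order depends on the pseudocount: with 0.1 in place of 1 the log2 changes were 3.22 for TNF, 2.94 for LTB and 2.17 for TNFRSF11B. With TPM rescaling the log2 change of TNF was 2.32, but that setting raises all values while the pseudocount stays at 1, so the pseudocount weighs less there too. The vector levels of both are so low that the sizes of the ratios are uncertain.

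LTA, the partner of LTB in those heterotrimers, lies directly on the other side of TNF and had a value of 0.04 FPKM in 1 vector and 1 RNF186 dish and 0 in the others. NFKBIL1, the next gene on that side, was at 6.67 ± 0.164 FPKM in the vector and 6.39 ± 0.653 in the RNF186 group and was not called (log2 change -0.06, limma adjusted p = 0.582). Beyond it, ATP6V1G2 was at 0.803 ± 0.169 and 0.957 ± 0.119 FPKM, with overlapping groups. The splicing helicase gene DDX39B fell from 131 ± 7.05 to 107 ± 3.35 FPKM (log2 change -0.28, limma adjusted p = 0.00209). On the side of LTB, LST1 had a value in 1 RNF186 dish, 0.12 FPKM, and AIF1 was listed at 0 in all 6 libraries. Both are known from myeloid cells.

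**Figure D3:**
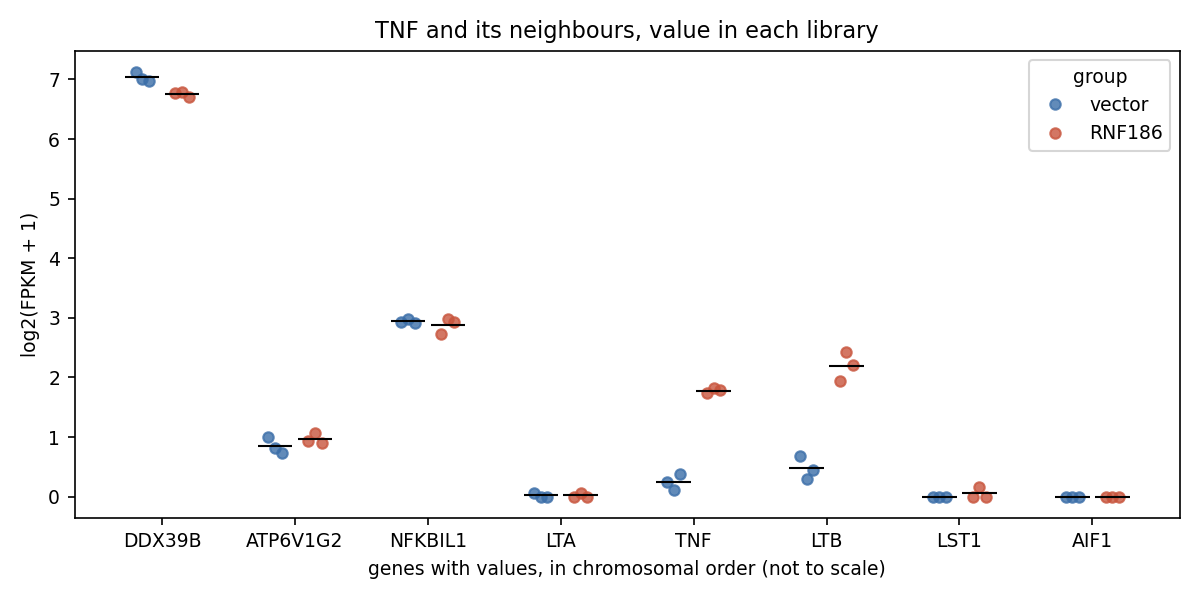
log2(FPKM + 1) of TNF and the neighbouring genes with values, in chromosomal order from left to right and not to scale; points are dishes and lines are group means. TNF and LTB are higher in all RNF186 dishes, while LTA between TNF and NFKBIL1 stays near 0 and DDX39B is lower.

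The sequence just upstream is shown for 3 called members with the largest rises and 1 with a large fall among those with an entry in RefSeq's promoter table (GRCh38.p14), bases -250 to -51 from the annotated start on the strand of the gene. LTB (chr6:31582476-31582675, minus strand), TNF (chr6:31575315-31575514, plus strand) and the decoy receptor TNFRSF6B (chr20:63696402-63696601, plus strand) rose, and TNFSF9 (chr19:6530776-6530975, plus strand) fell. TNFRSF14, which fell more than TNFSF9 and held overlapping κB matches from -86 to -75, is not shown because its window overlaps an annotated UTR. Capitals mark a match to the κB consensus or to the p53 response-element decamer on either strand.
LTB: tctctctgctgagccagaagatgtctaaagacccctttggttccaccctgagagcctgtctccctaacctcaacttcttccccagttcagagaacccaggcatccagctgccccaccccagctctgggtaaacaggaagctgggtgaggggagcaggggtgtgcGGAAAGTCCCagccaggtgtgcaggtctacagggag
TNF: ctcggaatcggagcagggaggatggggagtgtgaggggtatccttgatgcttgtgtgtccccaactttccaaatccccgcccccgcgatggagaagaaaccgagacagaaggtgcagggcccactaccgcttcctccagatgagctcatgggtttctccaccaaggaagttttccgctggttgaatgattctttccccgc
TNFRSF6B: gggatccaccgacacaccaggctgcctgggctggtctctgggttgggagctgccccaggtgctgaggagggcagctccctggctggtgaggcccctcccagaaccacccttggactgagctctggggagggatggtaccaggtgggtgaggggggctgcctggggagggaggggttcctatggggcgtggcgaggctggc
TNFSF9: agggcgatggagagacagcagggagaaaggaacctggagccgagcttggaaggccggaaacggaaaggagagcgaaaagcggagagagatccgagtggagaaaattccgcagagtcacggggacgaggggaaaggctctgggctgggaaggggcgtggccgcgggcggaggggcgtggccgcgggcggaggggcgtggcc
The window of LTB held a κB match from -86 to -77, and the windows of TNF, TNFRSF6B and TNFSF9 held neither motif in these letters. An exact match to GGGRNNYYCC or GGRRNNYCCC was needed for κB (R is A or G, Y is C or T, N is any base). A stretch that differs at a single base, such as gggtttctcc in the window of TNF, was not counted, so the lack of a match does not mean the lack of a site. Among 28 members with an entry, 8 held a κB match in at least 1 entry (28.6%), and 9.55% of all 27305 genes in the table did. No test was made of that difference. The 8 were LTB, LTA, FAS, TNFRSF9, TNFRSF14, TNFSF11, TNFSF13 and TNFSF14, which include a rise, falls and members that were not called. The p53 decamer was found for FAS, LTBR and TNFSF15 (10.7%), and for 5.55% of all genes. These matches describe letters, not bound sites.

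The remaining expressed ligands split by direction. TNFSF9 fell from 131.54, 130.50 and 116.40 FPKM in the vector to 92.83, 97.18 and 91.59 in the RNF186 dishes, with no overlap (log2 change -0.42, SE 0.0552, limma adjusted p = 0.000316). CD70 fell from 127.83, 124.13 and 115.29 FPKM to 83.96, 96.50 and 78.24 (log2 change -0.50, SE 0.0735, limma adjusted p = 0.000605), and the change was -0.33 with the GC and length correction. These 2 ligands remained far above all others, with vector means 1.34 and 1.42 times the RNF186 means. TNFSF13, which encodes the B cell factor APRIL, fell from 11.63, 11.81 and 11.06 FPKM to 8.77, 10.02 and 9.60 (log2 change -0.26, limma adjusted p = 0.0104). TNFSF10, the gene of TRAIL, was at 3.99, 3.98 and 3.93 FPKM in the vector and rose to 5.59, 4.74 and 5.87 (log2 change 0.36, SE 0.0791, limma adjusted p = 0.00585). TNFSF15, a ligand of TNFRSF25, rose from 2.49, 2.37 and 2.79 FPKM to 3.55, 3.17 and 3.57 (log2 change 0.32, limma adjusted p = 0.0104), a call lost with quantile normalization (0.0532). Reads of TNFSF12 and TNFSF13 could be divided in several ways, since a readthrough gene, TNFSF12-TNFSF13, spans both. That gene was listed at 0 in all 6 libraries and TNFSF12 was at 0 in 4.

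Of 4 decoy receptors tested, 3 rose, where 19.9% of all genes tested did. TNFRSF6B, 1 of the 3, passed the filter with a vector mean under 1 FPKM, so this count is only a description. TNFRSF11B, the gene of osteoprotegerin, a secreted decoy for RANK ligand and TRAIL, was at 1.63, 1.76 and 1.81 FPKM in the vector and at 8.24, 7.69 and 8.47 in the RNF186 dishes. All RNF186 dishes lay far above the vector dishes, with a ratio of means of 4.69, a log2 change of 1.74 and rank 38 among all rises (SE 0.0698, limma adjusted p = 6.74e-08). TNFRSF6B, a secreted decoy for FAS ligand, LIGHT (TNFSF14) and TNFSF15, rose from 1.15, 0.79 and 0.56 FPKM to 2.22, 2.87 and 2.01 (log2 change 0.88, SE 0.133, limma adjusted p = 0.000735), and the change was 1.44 with a pseudocount of 0.1. It lies within a readthrough gene with RTEL1, and the rule by which reads were shared out is unknown. RTEL1 itself was at 6.08 ± 0.416 and 6.02 ± 0.509 FPKM and was not called (log2 change -0.01, limma adjusted p = 0.905). The membrane decoys for TRAIL moved less. TNFRSF10D, whose death domain is truncated, rose from 25.26, 24.56 and 24.78 FPKM to 27.24, 29.11 and 28.22 (log2 change 0.17, limma adjusted p = 0.017), a call lost on leaving out vector replicate 2 (0.0699), vector replicate 3 (0.0527) or RNF186 replicate 3 (0.0575). TNFRSF10C, which is anchored by a lipid and has no death domain, was at 12.29, 11.32 and 12.50 FPKM in the vector and at 11.14, 12.58 and 11.35 in the RNF186 dishes and was not called (log2 change -0.04, limma adjusted p = 0.663).

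Among receptors with a death domain, 2 fell, 2 rose and 2 were not called of 6 tested, where 38.8% of all genes tested were called. FAS fell from 16.08, 16.36 and 15.75 FPKM to 12.72, 11.19 and 12.04, without overlap (log2 change -0.40, SE 0.0592, limma adjusted p = 0.000705). TNFRSF1A, the receptor of soluble TNF on most cells, fell from 27.50, 27.62 and 26.82 FPKM to 23.46, 23.37 and 21.32 (log2 change -0.26, SE 0.0528, limma adjusted p = 0.00424). The TRAIL receptors TNFRSF10A and TNFRSF10B did not pass the test. TNFRSF10A was at 23.19, 20.12 and 20.56 FPKM against 20.78, 20.62 and 20.73, within the vector range (log2 change -0.04, 95% interval -0.17 to 0.10). TNFRSF10B was at 59.67, 57.47 and 59.33 FPKM against 62.38, 64.03 and 62.91, where the groups did not overlap (log2 change 0.10, interval 0.01 to 0.19, limma adjusted p = 0.0858), and it was called higher with TPM rescaling (adjusted p = 0.024), quantile normalization (0.0296) and array weights (0.0214). The 4 TRAIL receptors on the membrane are similar in sequence, so their single values are uncertain. TNFRSF21, an orphan death receptor in most cells, rose from 20.82, 21.46 and 21.37 FPKM to 23.31, 24.50 and 24.94 (log2 change 0.18, limma adjusted p = 0.015), which did not hold without vector replicate 1 (0.053) or RNF186 replicate 3 (0.0674). TNFRSF25 was at 1.18, 2.06 and 1.63 FPKM in the vector and at 3.41, 3.33 and 2.03 in the RNF186 dishes. It was called (log2 change 0.57, SE 0.16, limma adjusted p = 0.0182) although the groups overlap, and the call ended without vector replicate 1 (0.0693) or RNF186 replicate 1 (0.0636), without a filter (0.0587) and with array weights (0.053), where the change was 0.36.

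EDAR and NGFR stayed under the filter and are taken from the fit with no filter. EDAR, the ectodysplasin receptor of hair and tooth development, was at 0.35, 0.37 and 0.36 FPKM in the vector and at 1.02, 1.50 and 0.98 in the RNF186 dishes, a ratio of 3.24 (log2 change 0.66, limma adjusted p = 0.00272). NGFR, the low-affinity neurotrophin receptor, was at 0.09, 0.09 and 0.06 FPKM against 0.40, 0.48 and 0.53, a ratio of 5.88 (log2 change 0.44, limma adjusted p = 0.00045). Both were higher in all 3 RNF186 dishes. With a pseudocount of 0.1 their log2 changes were 1.44 and 1.66. The ligand of EDAR, EDA, had 0.01 FPKM in 2 RNF186 dishes and 0 elsewhere. EDARADD, its adaptor, was at 0.03, 0.07 and 0.08 FPKM in the vector and at 0, 0.02 and 0 in the RNF186 dishes. The RNA of EDAR thus reached 1 FPKM in 2 dishes, while its ligand and adaptor stayed below 0.1 FPKM in every library.

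Receptors that bind TRAF adaptors held 4 falls and no rise among 8 tested, where 18.9% of all genes tested fell and 19.9% rose. TNFRSF14, the receptor of LIGHT, was at 8.98, 9.59 and 9.15 FPKM in the vector and at 5.78, 8.18 and 5.68 in the RNF186 dishes (log2 change -0.46, SE 0.111, limma adjusted p = 0.00986). RNF186 replicate 2 lay nearest to the vector dishes, and without it the change was -0.61. TNFRSF12A, the receptor of the ligand TNFSF12, fell from 48.97, 45.29 and 47.16 FPKM to 36.70, 43.28 and 34.43 (log2 change -0.30, SE 0.0764, limma adjusted p = 0.0112), and the change was -0.14 with the GC and length correction. LTBR, the receptor of LTB heterotrimers and LIGHT, fell from 48.76, 50.22 and 48.08 FPKM to 37.09, 44.95 and 40.07 (log2 change -0.27, SE 0.0658, limma adjusted p = 0.0104). RNF186 replicate 2 was again the highest of its group in both. LTBR overlaps SCNN1A, which also fell (log2 change -0.39), and reads of the pair cannot be told apart without strand. TNFRSF11A, which encodes RANK, fell from 10.04, 11.09 and 11.17 FPKM to 9.76, 8.77 and 8.84 (log2 change -0.22, limma adjusted p = 0.0271), a call lost on leaving out vector replicate 2 (0.101), vector replicate 3 (0.0923) or RNF186 replicate 3 (0.0927), without a filter (0.0501), with TPM rescaling (0.0898) and with a block for replicate number (0.0539).

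The other 4 tested receptors of this class were not called. TNFRSF1B, the receptor of membrane-bound TNF, was at 6.63, 6.50 and 6.20 FPKM in the vector and at 6.61, 7.90 and 7.41 in the RNF186 dishes (log2 change 0.16, 95% interval -0.01 to 0.32, limma adjusted p = 0.116). It was called higher with TPM rescaling (adjusted p = 0.0494) and when libraries were corrected for GC content and length (0.00473). RELT was at 5.06, 4.66 and 4.32 FPKM against 5.32, 6.55 and 5.18 (log2 change 0.23, limma adjusted p = 0.0681) and was called higher under the same settings (0.028 and 0.00161) and with array weights (0.0459). CD27, the receptor of CD70, was at 2.09, 2.74 and 3.07 FPKM against 2.03, 2.16 and 2.10 (log2 change -0.22, limma adjusted p = 0.116), and was called lower without vector replicate 1 (0.0206), with quantile normalization (0.0272) and with array weights (0.0155). TNFRSF9, the receptor of TNFSF9, was at 0.87, 0.96 and 1.11 FPKM against 1.01, 1.39 and 1.28, and the groups overlapped (log2 change 0.17, limma adjusted p = 0.199).

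Of the low members, 3 more ligands were called in the fit with no filter. FASLG, the FAS ligand, was at 0.13, 0.17 and 0.10 FPKM in the vector and at 0.35, 0.24 and 0.28 in the RNF186 dishes (limma adjusted p = 0.018), a call lost when vector replicate 1 (0.0625), vector replicate 3 (0.063) or RNF186 replicate 3 (0.0563) was left out and with the block for replicate number (0.0565). TNFSF4 was at 0.07, 0.06 and 0.06 FPKM in the vector and at 0.17, 0.17 and 0.15 in the RNF186 dishes (limma adjusted p = 0.00746), and was not called with the GC and length correction (0.352). TNFSF13B, which encodes the B cell factor BAFF, was at 0.57, 0.69 and 0.78 FPKM against 0.35, 0.39 and 0.50 (limma adjusted p = 0.0274). Its call ended when any of 4 dishes was left out, vector replicate 2 (0.0864), vector replicate 3 (0.079), RNF186 replicate 1 (0.0951) or RNF186 replicate 2 (0.0608). With a filter of 0.1 FPKM neither FASLG (0.0526) nor TNFSF4 (0.115) was called. TNFSF14, TNFRSF13C and EDA2R, all between 0.07 and 0.88 FPKM, had overlapping groups and were not called. CD40, CD40LG, LTA, TNFSF8, TNFSF11, TNFSF12, EDA, TNFRSF8 and TNFRSF18 were at 0 in at least 1 library and reached at most 0.13 FPKM, the value of TNFSF8 in vector replicate 3.

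**Figure D4:**
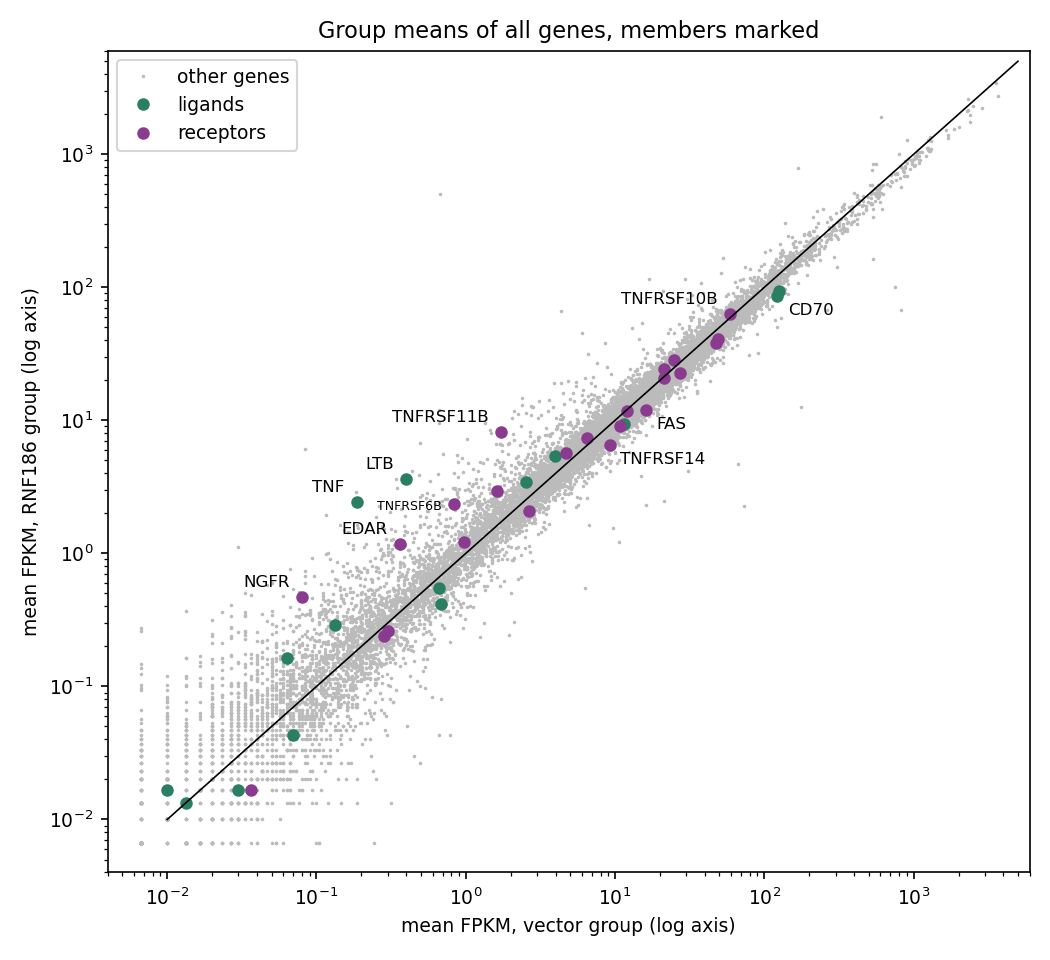
Mean FPKM in the RNF186 group against the vector group on log axes for all genes with both means above 0, ligands in green and receptors in purple; the line marks equal means. TNF, LTB, TNFRSF11B, TNFRSF6B, EDAR and NGFR lie above the line, and the abundant CD70 with TNFSF9 and FAS lies below it.

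Read as 30 known pairs of ligand and receptor, 7 pairs had both partners expressed in the vector group and 12 in the RNF186 group. The 7 were TRAIL (TNFSF10) with each of its 5 receptors on the list, CD70 with CD27, and TNFSF15 with TNFRSF25. The 5 others were TNF with TNFRSF1A and with TNFRSF1B, LTB with LTBR, TNFSF9 with TNFRSF9, and TNFSF15 with TNFRSF6B. Each of these 5 holds TNF, LTB, TNFRSF6B or TNFRSF9, the 4 members that reached 1 FPKM in all dishes of the RNF186 group but not of the vector group. The higher count of pairs thus restates that grouping and is not a separate result. In the pairs of TNF and TNFRSF1A and of LTB and LTBR the ligand rose while the receptor fell. LTA, the partner of LTB in the heterotrimers that LTBR binds, did not pass 0.04 FPKM in any library. The pair of LTB and LTBR is therefore counted without that partner. TNFSF9 and TNFRSF9 enter the count of 12 pairs through small margins, since TNFRSF9 was at 0.87 to 1.11 FPKM in the vector and 1.01 to 1.39 in the RNF186 dishes. Neither CD27, at 2.63 FPKM in the vector, nor TNFRSF9 came near the level of its ligand. FAS and the decoy TNFRSF6B were measured without much FAS ligand, as FASLG did not pass 0.35 FPKM. Of the other ligands of TNFRSF6B, TNFSF15 was expressed in both groups and TNFSF14 was low.

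Genes that act downstream of these receptors were counted by role, beside 19.9% of all genes tested called higher and 18.9% lower (38.8% in all). Among 15 adaptors and ligases at the receptor, 13 were tested, 3 rose and 1 fell, a share near that of all genes. BIRC3, an inhibitor of apoptosis and ubiquitin ligase that NF-κB induces, rose from 5.6 ± 0.119 to 10.2 ± 0.884 FPKM (log2 change 0.76, limma adjusted p = 2.97e-05). TRAF5 (log2 change 0.39) and TRAF3 (0.24) rose and TRAF2 fell (-0.41). The list's median was 0.06. Among genes of death signalling BID, which links death receptors to mitochondria, rose from 5.76 ± 0.484 to 8.02 ± 0.473 FPKM (log2 change 0.42, limma adjusted p = 0.00187). Of 13 kinases and NF-κB subunits, RELB (0.90 ± 0.0954 to 3.06 ± 0.608 FPKM, log2 change 1.09, limma adjusted p = 5.38e-05) and NFKB2 (0.54) rose, and 11 were not called, with a median of 0.08. Both are known from the non-canonical arm that LTBR and TNFRSF12A feed. RELB passed the filter with a vector mean under 1 FPKM, so the count of this list is only a description. Of 9 brakes, 4 rose, TNFAIP3 (1.05), NFKBIA (0.70), TNIP1 (0.40) and NFKBIE (0.32), and TANK fell (-0.19). NFKBIE, named after its values were seen, lost its call without vector replicate 1 (limma adjusted p = 0.0556) or vector replicate 3 (0.054). The sheddase ADAM17 cuts TNF from the membrane and is likewise named after its values were seen. It was at 13.1 ± 0.327 FPKM in the vector and 14.3 ± 0.406 in the RNF186 group. It was not called (limma adjusted p = 0.102), although the groups did not overlap. Of 6 processing genes tested only FURIN was called, falling from 16.4 ± 0.11 to 13.3 ± 0.996 FPKM (log2 change -0.29, limma adjusted p = 0.00457).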

How the data were processed

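The authors deposited 1 table of FPKM values for 6 libraries, given to 2 decimals, with human Entrez identifiers. Bowtie 0.12.2 and the mouse builds mm8 and mm9 are named per the submitters' processing notes, and the labels' extraction text is about retinas. Both contradict the human cell line, so no coordinate of the data is given. The counting program, its annotation and its use of strand are not given in the sources used here. The library kit was TruSeq, per the labels' protocols. Depth is unknown, since FPKM gives no read totals: in 674 comparisons of low values between libraries, 32.8% agreed to 0.15 log2 units and 6.97% fell in the next window, which gives no absolute depth.

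Of 19485 rows, 1 named no gene and 1921 had no values. Symbols were taken from RefSeq (GRCh38.p14) for 17524 rows, while 39 had none. Values were tested as log2(FPKM + 1), which understates changes of low genes, for genes whose mean reached 1 FPKM, with limma 3.58.1 in R 4.3.3 (trend, two-sided, Benjamini-Hochberg over all genes tested, no covariates). Intervals are 95% intervals of that model. The procedure was checked on simulated data with independent noise and few changed genes. These data differ in both respects, so that check does not vouch for the calls. An exact permutation test of 3 against 3 dishes cannot go below 0.1 and was not used. Members under the filter were read from the same fit on all genes with a value above 0. All 44 members are named. Of each other list the called members, at most 4, are named, and 1 result of the death signalling list is not reported here. The members and lists were chosen with earlier results of these data known. Motifs were searched in RefSeq's promoter table, and a window that overlaps an annotated UTR is not shown. Alternatives were other pseudocounts, filters, scalings, variance models, thresholds, a replicate block and leaving out each library. A GC and length correction per library (GENCODE annotation) was added after seeing the data.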

Additional observations from a re-analysis of the deposited data

How the results depend on the processing

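The 18 called members kept their direction in each alternative that tested them. With an adjusted p under 0.01, 5 members were higher and 5 lower, and 1465 genes higher and 1121 lower. With a filter of 5 FPKM, 2 members were higher, since TNF, LTB, TNFRSF11B, TNFRSF6B, TNFRSF25, TNFSF10 and TNFSF15 are then not tested. Leaving out 1 library gave 1432 (without RNF186 replicate 3) to 2949 (without RNF186 replicate 2) lower genes, 1708 to 2710 higher genes, 7 to 9 higher members and 8 to 10 lower members. The other 70 counts stayed within 1.5 times of the reported ones. Of the 23 members called in either fit, 12 kept their call in each alternative that tested them. TNF, LTB, TNFRSF11B, TNFRSF6B, TNFSF10, EDAR and NGFR, which are among the 12, were not tested with the filter of 5 FPKM. The members whose sign turned were never called. The log2 change of TNFRSF10A was 0.0122 with TPM rescaling, 0.00437 with array weights and -0.073 to 0.0249 without 1 library. That of TNFRSF10C was 0.00633 with TPM rescaling and 0.0604 with the length and GC correction. Without 1 library TNFRSF13C ran from -0.14 to 0.0642 and EDA2R from -0.0816 to 0.0076.

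The labels give the replicates of both groups the numbers 1 to 3 but do not say that a number marks a shared batch. Deviations from the group means of same-numbered dishes correlated at -0.27, -0.07 and 0.25 across genes, and no vector dish correlated best with the RNF186 dish of its own number. With a replicate block 9 members were higher and 8 lower, with 2050 genes higher and 1987 lower, and TNFRSF11A was no longer called (limma adjusted p = 0.0539). Since depth is unknown, low values may rest on few reads, above 0.1 FPKM as well as below it. The NK cell marker NKG7, with a transcript of 843 bases, was at 0.08, 0.16 and 0.16 FPKM in vector replicates 1 to 3. In RNF186 replicates 1 to 3 it was at 0.08, 0.24 and 0, so its values above 0 were all multiples of 0.08. The vector values of TNF, 0.08 to 0.30 FPKM, and the values of FASLG, 0.10 to 0.35, may likewise rest on few reads.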

Other observations

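Some members share genome sequence with a neighbour, and strand-specific counting is not stated. EDAR overlaps RANBP2, FAS overlaps ACTA2, TNFRSF25 overlaps ESPN and TNFRSF10B overlaps RHOBTB2. Whether reads of these neighbours entered the values of the members was not tested. SCNN1A, a sodium channel subunit gene that overlaps LTBR, fell from 26.9 ± 0.669 to 20.4 ± 1.66 FPKM (log2 change -0.39, limma adjusted p = 0.00106, n = 3 dishes per group, chosen for its position after the data were seen). TAPBPL, which overlaps CD27, was at 7.26 ± 0.869 and 8.02 ± 0.0321 FPKM and was not called (limma adjusted p = 0.204). SENP3, near TNFSF13, fell from 28.4 ± 0.301 to 23.9 ± 2.15 FPKM (limma adjusted p = 0.0144), a call that ended without RNF186 replicate 1 (0.0552). TNFRSF17, a B cell receptor of the same superfamily outside the list, was listed at 0 in all 6 libraries.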
